A study of Mus musculus with 44 samples.

Results

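The matrix metalloproteinases (Mmp), the ADAMTS proteases (Adamts) and the tissue inhibitors of metalloproteinases (Timp) were followed across cultured primary mouse astrocytes and microglia. Members were taken by name, as every protein-coding gene called Mmp, Adamts or Timp with a number in the GENCODE M21 annotation. This rule uses no measured value, though the family was chosen with earlier results of these data known. The members number 45 of the 54146 genes in the count table. Of these 45, 22 are Mmp genes, 19 are Adamts genes and 4 are Timp genes. Membrane-type Mmp here means Mmp14, Mmp15, Mmp16, Mmp17, Mmp24 and Mmp25, and the other 16 Mmp are taken as secreted, Mmp23, which is anchored by its N terminus, included. Cells came from wild-type mice (WT, mouse Apoe), from APOE33 and APOE44 mice, known as lines with human APOE3 or APOE4 in place of the mouse gene, and from Apoe knock-out mice (KO). Each cell type has 6 WT, 6 APOE33, 6 APOE44 and 4 KO libraries, grown untreated in media made for human cells. The groups hold females and males, and KO replicate 1 is the only female among the 4 KO libraries of each cell type. The labels give neither the age of the animals nor whether replicates come from separate animals or cultures, so each p measures only the spread between these libraries, which may be technical.

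Mmp and Adamts proteases are zinc enzymes that are made as inactive precursors and cleave proteins of the extracellular matrix and of the cell surface. Timp proteins block them by filling the active site, and the balance between proteases and inhibitors sets how fast matrix is turned over. In the brain the family is known for cleaving the proteoglycans of perineuronal nets, opening the vascular basement membrane and releasing growth factors, and the promoters of several secreted Mmp genes respond to AP-1 factors downstream of cytokines.

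Astrocyte libraries held 83239599 to 143150569 counts each, and microglia libraries 86313947 to 120505499. Of gene counts from 1 to 9, 62.4% to 75.5% were even in astrocyte libraries and 65.9% to 78.7% in microglia libraries. Whether both reads of a pair were counted was not tested, and low counts may stand for fewer fragments. The knocked-out gene itself matched the labels. Mouse Apoe ran from 4972 to 6447 CPM (counts scaled to library size, with TMM factors) in WT and from 9.28 to 13.2 CPM in KO astrocytes. In microglia it ran from 45154 to 60542 CPM in WT and from 7.45 to 27.7 CPM in KO cells. In APOE33 and APOE44 libraries reads on the mouse gene stood between 19.7 and 80.8 CPM, and human APOE has no row of its own. Astrocyte markers summed to between 10038 and 15252 CPM in astrocyte cultures and to at most 135 CPM in microglia cultures. Markers of microglia and macrophages summed to between 13262 and 22931 CPM in microglia cultures and to at most 338 CPM in astrocyte cultures. In 3 microglia libraries (APOE33 replicate 2 and APOE44 replicates 3 and 6), Olig2 stood at 8.13, 8.25 and 5.25 CPM and Pdgfra at 5.82, 4.61 and 4.09 CPM, where no other microglia library exceeded 0.943 CPM of Pdgfra. Fibroblast collagens were near 0 in these libraries, with Col1a1 at 0, 0 and 0.133 CPM. Neuron markers summed to 8.37, 7.99 and 6.71 CPM there, and to at most 2.11 CPM in every other microglia library. Slc1a2, of the astrocyte list, stood at 8.52, 6.71 and 7.67 CPM, against at most 2.18 CPM in the others. The whole astrocyte list did not stand apart, at 85.0, 87.1 and 86.1 CPM. In bulk libraries such as these, fewer cells of a type and less RNA per cell cannot be told apart.

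The inhibitor Timp2 was the most abundant member of the family in both cell types. Levels between genes are given as CPM per kb of exon, averaged over the 4 genotype means. In astrocytes Timp2, a secreted inhibitor that also helps Mmp14 activate the precursor of Mmp2, stood at 204 CPM per kb and made up 55.6% of the members' summed level. Timp3, the inhibitor that binds to the matrix, followed at 66.5 CPM per kb, while Timp1 and Timp4 stood at 3.42 and 3.20 CPM per kb. In microglia Timp2 stood at 388 CPM per kb and made up 80.2% of the summed level. The other inhibitors were low there, with Timp1 at 0.619, Timp3 at 0.194 and Timp4 at 0.0300 CPM per kb. By class, inhibitors held 75.5% of the summed level in astrocytes and 80.4% in microglia.

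Astrocytes carried a broad set of proteases below Timp2 and Timp3. Adamts1, a protease of versican and aggrecan, stood at 18.3 CPM per kb. The membrane-type enzymes Mmp14 and Mmp15 stood at 17.5 and 16.3 CPM per kb. Next came Adamts5, a protease of aggrecan, at 6.27, Mmp19 at 5.73, Mmp28 at 5.48 and Mmp16 at 3.88 CPM per kb. In all, 15 members reached 1 CPM per kb in astrocytes, and Mmp1b and Mmp10 had no count in any of the 22 libraries.

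Microglia concentrated the family in fewer genes. Mmp14 at 38.4 CPM per kb and Mmp12, the macrophage elastase, at 30.6 CPM per kb followed Timp2. Below them stood Mmp19 at 7.40, Adamts10 at 7.13, Adamts1 at 3.06, Mmp2 at 2.81 and Mmp13 at 2.25 CPM per kb. In all, 8 members reached 1 CPM per kb in microglia, and Mmp7, Mmp20 and Adamts19 had no count in any library. Secreted Mmp held 9.46% of the summed level in microglia and 3.95% in astrocytes, whereas Adamts proteases held 2.18% and 9.29%.

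**Figure D1:**
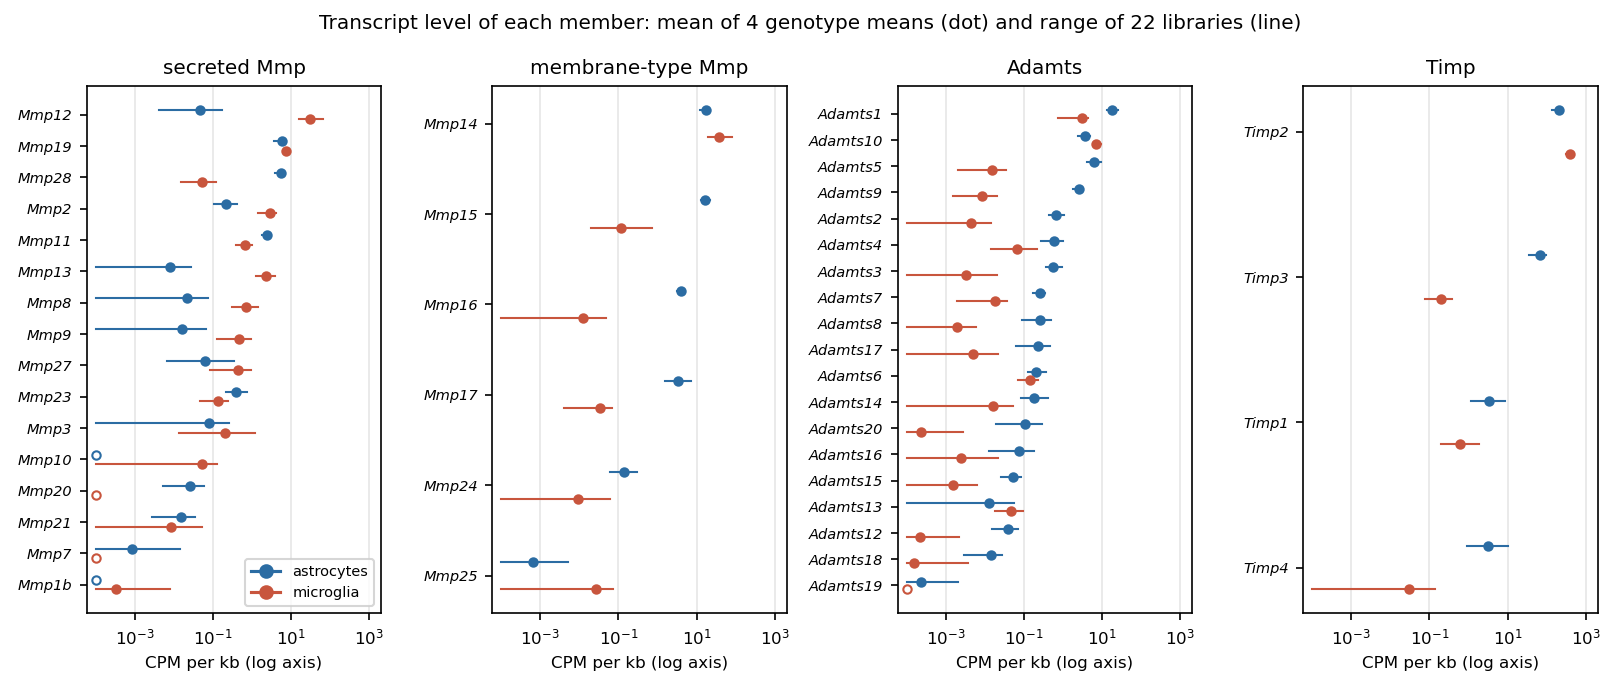
Level of each member in CPM per kb of exon (log axis) in astrocytes and microglia; dots are the mean of the 4 genotype means, lines run from the lowest to the highest library, and a line reaching the left edge marks a library with no count (open dots, no count in any library). Timp2 leads in both cell types, Timp3 stands at 66.5 CPM per kb in astrocytes and at 0.194 CPM per kb in microglia, and Mmp12 shows the opposite order.

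Microglia and astrocytes differed in every member tested. In the 32 libraries of batch 1 (APOE33, APOE44 and KO), microglia against astrocytes was tested with the 3 genotypes weighted equally, and 41 of 41 members tested passed an edgeR adjusted p of 0.05. The background is high: 90.9% of 21647 genes passed, with 40.3% higher and 50.6% lower in microglia. Among members, 14 were higher and 27 lower in microglia, and the median log2 difference was -3.97 beside -0.25 over all genes. The low-count filter keeps a gene that is high in either cell type, here and in the background. When each cell type of batch 1 was fitted alone, 23 members passed the filter in both. For the others a difference was largely set by the filter, so the total and the median carry little weight. The classes divided unevenly. Of 13 secreted Mmp 9 were higher in microglia, of 18 Adamts 16 were lower, of 6 membrane-type Mmp 4 were lower, and of 4 Timp 3 were lower. The same comparison in the 12 WT libraries, which the batch 1 test does not use, called 37 of 37 members (11 higher, 26 lower) on a background of 89.5% of 19331 genes (41.6% higher, 47.9% lower).

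Secreted Mmp genes of a cluster on chromosome 9 were prominent among those higher in microglia. The cluster spans positions 7272514 to 7699585 (GRCm38), and its 9 protein-coding genes are all Mmp genes: Mmp1b, Mmp3, Mmp7, Mmp8, Mmp10, Mmp12, Mmp13, Mmp20 and Mmp27. Promoters from RefSeq (GRCm38.p6) were found for 31 of the 45 members, in 34 windows of 250 bases before the start. The AP-1 element TGAGTCA, searched on both strands, is in 6 of these 34 windows and in 4.46% of all 32851 windows. All 6 belong to the cluster. Every cluster gene had a window. The members without a window, Mmp2, Mmp9 and Mmp19 among them, all lie outside the cluster and were not searched. An ETS element, GAGGAAGT on either strand, is in the windows of Mmp12, Mmp7 and Mmp8 and in 2.44% of all windows. The 120 bases before the start are shown for 5 cluster genes with the AP-1 element (in capitals) and very different levels in these cells; each reads 5′ to 3′ on the plus strand, on which these genes lie.
Mmp12 (chr9:7347254-7347373): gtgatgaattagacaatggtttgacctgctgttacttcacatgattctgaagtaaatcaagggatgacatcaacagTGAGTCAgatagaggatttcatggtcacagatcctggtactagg
Mmp13 (chr9:7272394-7272513): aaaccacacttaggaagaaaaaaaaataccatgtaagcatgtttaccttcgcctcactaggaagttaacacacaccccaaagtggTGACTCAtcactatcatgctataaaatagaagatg
Mmp3 (chr9:7445702-7445821): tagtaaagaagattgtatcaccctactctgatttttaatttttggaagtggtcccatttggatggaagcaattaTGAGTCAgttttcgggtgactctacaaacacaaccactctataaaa
Mmp10 (chr9:7502222-7502341): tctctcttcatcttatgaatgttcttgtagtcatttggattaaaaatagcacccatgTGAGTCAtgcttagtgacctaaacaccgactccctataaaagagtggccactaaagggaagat
Mmp7 (chr9:7691970-7692089): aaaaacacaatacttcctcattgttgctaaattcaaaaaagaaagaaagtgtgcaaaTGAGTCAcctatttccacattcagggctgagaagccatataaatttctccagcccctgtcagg
RefSeq gives Mmp12 a pair of starts. The window shown for it precedes the downstream start, while its ETS element lies in the other window (chr9:7344147-7344396), which has no AP-1 element. The first base of the AP-1 element lies 44 bases before that downstream start in Mmp12, 35 in Mmp13 (on the minus strand), 46 in Mmp3, 63 in Mmp10 and 63 in Mmp7. A match to these letters is a description of the sequence and not a measured binding site.

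Levels of these 5 genes differed widely. Mmp12 had a median of 288 CPM in WT, 188 in APOE33, 209 in APOE44 and 174 in KO microglia, and no astrocyte library exceeded 1.24 CPM. It was higher in microglia by 9.89 on the log2 scale (SE 0.27, edgeR adjusted p = 7.48e-23) in batch 1 and by 8.68 (SE 0.34, adjusted p = 3.75e-10) in WT. Mmp13, a collagenase, ran from 3.35 to 10.2 CPM over the 22 microglia libraries and reached at most 0.0727 CPM in astrocytes. Its log2 difference was 8.42 (SE 0.30, adjusted p = 6.33e-21) in batch 1 and 7.75 (SE 0.32) in WT. Neither gene's libraries overlapped between the cell types. Mmp10, a stromelysin, was low, with 118 counts in batch 1 microglia and 0 in batch 1 astrocytes. Against a floor of 3 counts over the astrocyte libraries it was at least 58.7-fold higher. Such bounds are less certain if both reads of a pair were counted. Mmp3, the related stromelysin, was low in both cell types, and Mmp7 had 2 counts in all 44 libraries together.

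The other cluster members and the gelatinases followed the same order. Mmp8, the neutrophil collagenase, was higher in microglia by 6.25 in batch 1 (SE 0.34, adjusted p = 1.96e-16) and by 3.03 in WT (SE 0.24). Mmp9, a gelatinase, was higher by 5.14 (SE 0.28) and 3.94 (SE 0.34), and Mmp27 by 3.48 (SE 0.29) and 1.81 (SE 0.36). Mmp2, the other gelatinase, was higher by 3.91 (SE 0.16) and 2.75 (SE 0.19). Mmp19 differed little, at 0.40 (SE 0.04) and 0.36 (SE 0.04). Mmp20, known from tooth enamel, ran the other way: it had 193 counts in batch 1 astrocytes and 0 in batch 1 microglia, at least 43.1-fold lower. Mmp28 was lower in microglia by a log2 value of -6.87 (SE 0.16), and Mmp11 by -2.09 (SE 0.07).

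Among membrane-type enzymes, Mmp14 was above 10 CPM per kb in both cell types. Its log2 difference was 1.14 in batch 1 (SE 0.06, adjusted p = 1.07e-16) and 0.78 in WT (SE 0.09). Mmp15, Mmp16 and Mmp17 belonged to astrocytes, with log2 differences of -7.14 (SE 0.46), -8.45 (SE 0.22) and -6.63 (SE 0.26) in batch 1. Mmp15 ran from 71.7 to 118 CPM in astrocytes. In microglia it stayed at or under 0.561 CPM in 19 libraries and reached 3.81, 3.43 and 2.22 CPM in APOE33 replicate 2, APOE44 replicate 3 and APOE44 replicate 6, the libraries with Olig2 and Pdgfra. The call was unchanged with these 3 libraries left out, as were those of the other 40 members. Mmp25, a membrane-type enzyme described in leukocytes, was higher in microglia by 5.28 (SE 0.61), against 2 counts in each astrocyte group of batch 1.

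Adamts proteases were astrocyte genes with few exceptions. Adamts5 ran from 44.0 to 104 CPM in astrocytes and from 0.0219 to 0.384 CPM in microglia, a log2 difference of -8.84 in batch 1 (SE 0.14, adjusted p = 1.44e-28). Adamts9, which like Adamts1 and Adamts5 cleaves proteoglycans of the aggrecan group, was lower in microglia by -8.19 (SE 0.15). Adamts2 and Adamts3, which trim procollagens, were lower by -7.02 (SE 0.28) and -7.13 (SE 0.31). The 2 Adamts higher in microglia were Adamts10, whose gene is tied to fibrillin fibres, at 0.97 (SE 0.06), and Adamts13, the protease of von Willebrand factor, at 2.09 (SE 0.41). Adamts1 was expressed in both, with -2.50 (SE 0.15). Adamts6 differed little, at 0.203 CPM per kb in astrocytes and 0.146 CPM per kb in microglia. Its call in batch 1 was lost without microglia KO replicate 1 (-0.27, edgeR adjusted p = 0.0692). Adamts12 had 2 counts in batch 1 microglia and 796 in batch 1 astrocytes.

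Of the inhibitors, Timp3 and Timp4 were far higher in astrocytes. Timp3 ran from 290 to 761 CPM in astrocytes and from 0.644 to 3.13 CPM in microglia, with a log2 difference of -8.57 (SE 0.25, adjusted p = 3.09e-22) in batch 1. Timp4 differed by -5.87 (SE 0.43) in batch 1 and by -8.44 (SE 0.19) in WT. Timp1, the inducible inhibitor, was lower in microglia by -2.06 (SE 0.26). Timp2 alone was higher in microglia, by 0.87 (SE 0.05) in batch 1 and 1.22 (SE 0.04) in WT. Timp3 lies inside Syn3 on the opposite strand and shares 21.3% of its exon bases with it, and whether counting used strand is not given in the sources used here.

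No member differed between APOE44 and APOE33 cells in edgeR, and DESeq2 called Mmp9 in microglia. In astrocytes 0 of 35 members passed in edgeR, with 2 at an unadjusted p under 0.05. The edgeR background was 0.703% of 20481 genes (0.420% higher and 0.283% lower in APOE44). DESeq2 called 0 of the 32 members to which it gave an adjusted p, and 319 genes in all. The members' median log2 difference was -0.01. In microglia 0 of 29 members passed in edgeR, with 5 at an unadjusted p under 0.05, on a background of 0.840% of 17143 genes (0.379% higher and 0.461% lower in APOE44). DESeq2 called 1 of the 22 members to which it gave an adjusted p, Mmp9 (DESeq2 adjusted p = 0.000481). It called 418 genes in all, where edgeR called 144. No genotype difference between the cell types passed either (0 of 41 in edgeR, with 1 at an unadjusted p under 0.05), on a background of 0.296% of genes, 0.152% with a higher and 0.143% with a lower effect in microglia.

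Mmp9 was the member nearest to a call. Its 6 APOE44 microglia libraries ran from 0.442 to 0.941 CPM with a median of 0.650 CPM. The APOE33 libraries held 2.29, 1.45, 1.80, 2.54, 3.06 and 0.575 CPM, and the WT libraries 1.18 to 2.31 CPM. Every APOE44 library was below 5 of the 6 APOE33 libraries, and replicate 6 of APOE33 lay within the APOE44 range. The log2 difference was -1.65 (SE 0.39, edgeR adjusted p = 0.0666). Without that APOE33 library it was -2.01 (adjusted p = 0.00219). Mmp14 in the same comparison ran from 173 to 240 CPM in APOE44 and from 145 to 196 CPM in APOE33 microglia, overlapping, with 0.30 (SE 0.12, adjusted p = 0.325). Mmp12, Timp2 and Adamts10 gave -0.21 (SE 0.21), -0.19 (SE 0.07) and 0.04 (SE 0.07), with adjusted p of 0.734, 0.311 and 0.859.

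Loss of Apoe went with a higher level of Mmp14 in microglia. Mmp14 is the membrane-anchored collagenase that, with Timp2, activates the precursor of Mmp2. It stood at 293, 477, 425 and 389 CPM in the 4 KO libraries. The APOE33 libraries ran from 145 to 196 CPM (median 176), the APOE44 libraries from 173 to 240 CPM (median 216) and the WT libraries from 116 to 167 CPM (median 140). Every KO library lay above every other microglia library. Against APOE33 the rise was 2.37-fold, 1.24 on the log2 scale (SE 0.14, edgeR adjusted p = 3.99e-05). Against APOE44 it was 0.94 (SE 0.14, adjusted p = 0.000172). These comparisons share the 4 KO libraries.

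Few other members moved in KO microglia. Against APOE33, 3 of 29 members passed, 10.3%, below the background of 22.7% of genes (10.9% higher, 11.9% lower): Mmp14 and Mmp19 rose and Mmp25 fell. The members' median log2 difference was 0.22 beside -0.02 over all genes. Against APOE44, 6 of 29 passed on a background of 26.9% (13.6% higher, 13.4% lower), with Mmp14, Mmp19, Mmp9, Mmp23 and Timp2 higher and Mmp25 lower. Mmp19, a secreted enzyme of the basement membrane, held 31.0, 29.1, 31.1 and 29.6 CPM in KO against 22.1 to 26.7 CPM in APOE33 and 24.8 to 27.0 CPM in APOE44. The KO libraries did not overlap the others, and the log2 differences were 0.27 (SE 0.05, adjusted p = 0.00129) and 0.21 (SE 0.05, adjusted p = 0.00578). Mmp19 shares 22.3% of its exon bases with Tmem198b on the opposite strand.

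Mmp25 was a call on few counts. It stood at 0.0666, 0, 0 and 0.0466 CPM in KO, 9 counts in all, against 0.147 to 0.379 CPM in APOE33 (105 counts) and 0.0981 to 0.348 CPM in APOE44 (119 counts). The groups did not overlap. The log2 differences were -2.64 (SE 0.68, adjusted p = 0.0103) and -2.82 (SE 0.67, adjusted p = 0.00524). Mmp9 in KO held 1.01, 3.41, 1.72 and 2.10 CPM, above every APOE44 library. These values overlapped the APOE33 libraries, with 3.41 CPM in KO replicate 2 above all of them. It was higher than in APOE44 by 1.60 (SE 0.41, adjusted p = 0.00877) and at -0.06 (SE 0.46, adjusted p = 0.948) against APOE33.

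The remaining calls against APOE44 were weaker. Mmp23 held 0.426, 0.557, 0.443 and 0.338 CPM in KO and ran from 0.109 to 0.405 CPM in APOE44, with a log2 difference of 1.04 (SE 0.36, adjusted p = 0.0412). Timp2 held 1875, 1485, 1575 and 1733 CPM in KO and ran from 1223 to 1559 CPM in APOE44, with 0.23 (SE 0.08, adjusted p = 0.05, just under the threshold). In Timp2 and Mmp23 the groups overlapped. Without KO replicate 1 the Timp2 value was 0.13 (adjusted p = 0.349). The Mmp23 call was lost without any of 7 single libraries (APOE44 replicates 1 to 4, KO replicates 1 to 3), with adjusted p up to 0.106, and with no filter on low counts (0.0611). Without the 3 libraries with Olig2 and Pdgfra its log2 difference was 0.94 (adjusted p = 0.0852).

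Mmp12, Mmp2, Adamts10 and Adamts1 did not pass in KO microglia. Mmp12 held 174, 116, 175 and 174 CPM in KO and ran from 135 to 391 CPM in APOE33, at -0.56 (SE 0.25, adjusted p = 0.121). Mmp2 and Adamts10 were at -0.14 (SE 0.15) and -0.03 (SE 0.08) against APOE33. Adamts1 was split within KO, at 22.9 CPM in replicate 1, the female, and 3.99, 6.42 and 13.3 CPM in the 3 males, with APOE33 between 13.1 and 22.1 CPM. Its log2 difference was -0.61 (SE 0.35, adjusted p = 0.251), and without replicate 1 it was -1.31 (adjusted p = 0.0153).

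Marker sums differed with KO in these cultures, in both directions. Border macrophage markers summed to between 1734 and 1920 CPM in KO and between 1083 and 1531 CPM in APOE33 microglia; most of the sum was Ms4a7 and Mrc1, while Lyve1 and Cd163 stayed at or under 0.196 CPM. Neutrophil markers summed to between 3.64 and 5.47 CPM in KO and between 1.28 and 2.996 CPM in APOE33, nearly all S100a8, with Ly6g at 0 in every library. Astrocyte markers summed to between 91.1 and 135 CPM in KO and between 32.2 and 85.0 CPM in APOE33. Mural markers were lower, though overlapping, at 39.5 to 79.6 CPM in KO and 73.2 to 153 CPM in APOE33. Markers of microglia and macrophages summed to between 19140 and 19726 CPM in KO, below every APOE33 library (20215 to 22931 CPM). The part of these cells in the Mmp14, Mmp19, Mmp9 and Mmp25 values was not tested.

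**Figure D2:**
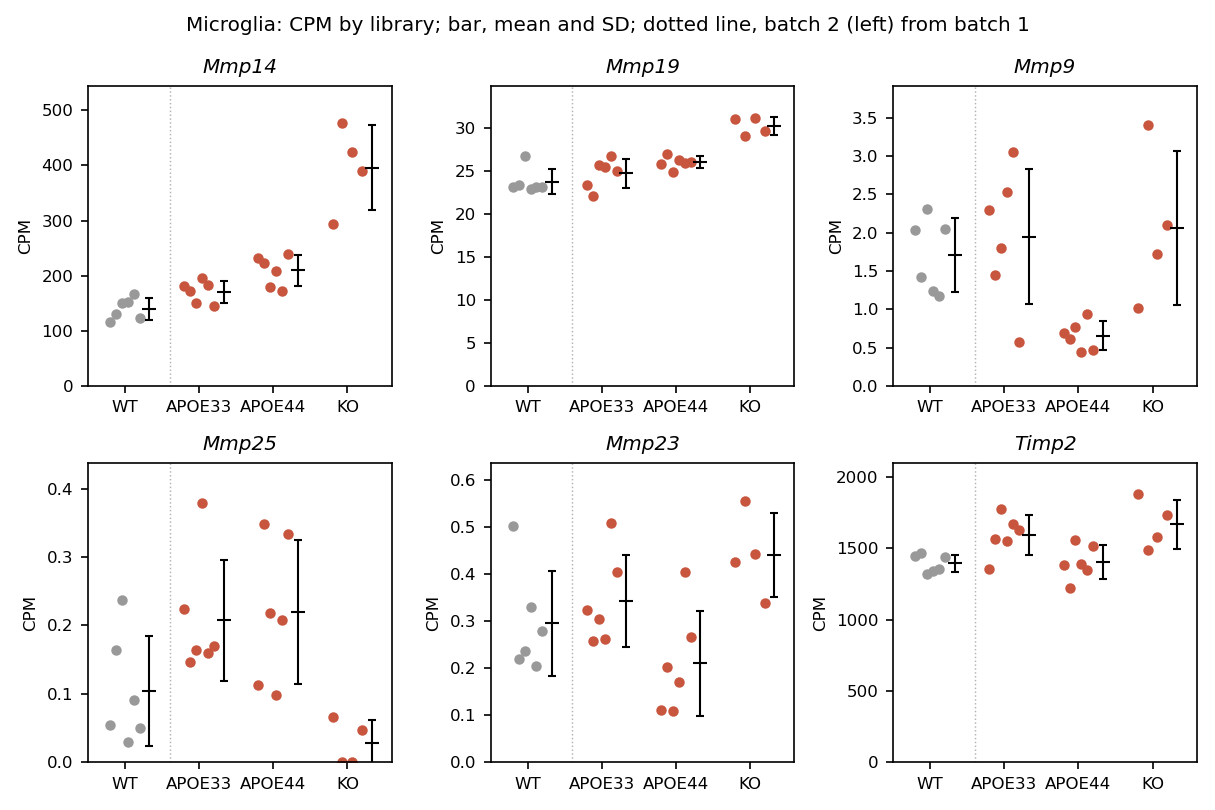
CPM in each microglia library by genotype for members the text describes; points are libraries, bars the mean and SD, and the dotted line separates WT, which is batch 2, from the others. The 4 KO libraries of Mmp14 sit between 293 and 477 CPM, above all others, and those of Mmp25 sit at or under 0.0666 CPM.

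In astrocytes, loss of Apoe went with changes in other members. Against APOE33, 6 of 35 passed, 17.1%, beside a background of 17.2% (8.37% higher, 8.83% lower): Adamts4, Timp1, Mmp19 and Mmp3 rose, and Adamts17 and Mmp15 fell. Against APOE44, which shares the KO libraries, 9 of 35 passed, 25.7%, beside 22.7% (11.0% higher, 11.8% lower). Here Mmp3, Timp1, Mmp23 and Adamts4 were higher, and Adamts1, Mmp15, Adamts17, Adamts12 and Adamts16 lower. The median log2 difference over members was -0.01 against APOE33 and 0.04 against APOE44. The share of members called was thus near that of all genes.

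Timp1, the inhibitor known to rise in reactive astrocytes, held 7.67, 4.06, 4.34 and 4.16 CPM in KO astrocytes. It ran from 1.01 to 3.92 CPM in APOE33 (median 1.67) and from 1.30 to 2.81 CPM in APOE44 (median 1.87). No library overlapped, though APOE33 replicate 6 came close at 3.92 CPM and KO replicate 1 stood far above the other KO libraries. The log2 differences were 1.30 (SE 0.32, adjusted p = 0.0129) and 1.37 (SE 0.32, adjusted p = 0.00649). Without KO replicate 1 they were 0.66 (adjusted p = 0.170) and 0.78 (adjusted p = 0.0727), so these calls rest on that library. WT astrocytes, of batch 2, ran from 2.44 to 3.80 CPM. The other inhibitors did not pass against either group: Timp2 was at -0.08 (SE 0.08), Timp3 at -0.13 (SE 0.23) and Timp4 at -0.51 (SE 0.32) against APOE33.

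Mmp3 and Mmp19 were the secreted enzymes that rose against APOE33. Mmp3, a stromelysin that activates other Mmp precursors, held 0.298, 0.442, 0.431 and 0.452 CPM in KO (210 counts in all). It reached at most 0.122 CPM in APOE33 (40 counts) and 0.0858 CPM in APOE44 (26 counts), with 2 libraries of each at 0. The KO libraries stood apart at a low level, and the log2 differences were 3.01 (SE 0.84, adjusted p = 0.0239) and 3.71 (SE 0.83, adjusted p = 0.0051). Against APOE33 the call was lost with no filter on low counts (adjusted p = 0.0527) and without KO replicate 1 (0.0573) or APOE33 replicate 3 (0.0559). Mmp19 held 21.95, 25.6, 25.3 and 23.6 CPM in KO and ran from 13.03 to 20.8 CPM in APOE33, with 0.33 (SE 0.09, adjusted p = 0.0237). Its KO and APOE33 libraries did not overlap, but the call was lost without KO replicate 1 (0.0915), KO replicate 3 (0.0562) or APOE33 replicate 3 (0.0761). Against APOE44 it did not pass (0.17, SE 0.09, adjusted p = 0.18). Mmp23 held 1.69, 1.20, 1.08 and 1.58 CPM in KO and passed against APOE44 (0.95, SE 0.24, adjusted p = 0.00958), where APOE44 reached 0.821 CPM. Without KO replicate 1 it did not (0.0630).

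Mmp15, the membrane-type enzyme of astrocytes, fell slightly. It held 71.7, 82.9, 80.2 and 85.7 CPM in KO, between 83.5 and 103 CPM in APOE33 and between 88.8 and 118 CPM in APOE44. The KO libraries lay below every APOE44 library and overlapped the lowest APOE33 library. The log2 differences were -0.24 (SE 0.08, adjusted p = 0.0422) and -0.35 (SE 0.07, adjusted p = 0.00336). The first was lost without any of 11 single libraries in turn, with adjusted p up to 0.201 without KO replicate 1. Mmp17, a GPI-anchored enzyme, was higher in KO without passing, at 47.8, 31.3, 29.9 and 43.6 CPM (0.91, SE 0.36, adjusted p = 0.0958). Its APOE33 libraries fell into 14.9, 9.98 and 12.5 CPM in replicates 1 to 3 and 28.8, 26.3 and 29.0 CPM in replicates 4 to 6. Mmp14, which rose in KO microglia, held 89.2, 118, 109 and 119 CPM in KO astrocytes, beside 103 to 117 CPM in APOE33 and 108 to 129 CPM in APOE44. Replicate 1 lay below both ranges and the other 3 libraries overlapped or adjoined them, and neither comparison passed.

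Adamts members moved in opposite directions. Adamts4, a protease of aggrecan and brevican, held 4.36, 3.84, 4.85 and 4.52 CPM in KO, above APOE33 (1.64 to 3.31 CPM, median 2.42) and APOE44 (2.41 to 3.08 CPM, median 2.90) with no overlap. The log2 differences were 0.79 (SE 0.17, adjusted p = 0.00509) and 0.58 (SE 0.16, adjusted p = 0.017). The second was lost without KO replicate 1 (adjusted p = 0.0942). Adamts17, a relative of Adamts10, held 0.477, 1.25, 0.780 and 0.920 CPM in KO, below APOE33 (1.37 to 3.65 CPM) and APOE44 (1.57 to 3.55 CPM) with no overlap. It fell by 1.57 on the log2 scale against APOE33 (SE 0.35, adjusted p = 0.00794) and by 1.53 against APOE44 (SE 0.34, adjusted p = 0.0047).

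Adamts1 at 79.9, 71.0, 75.7 and 78.8 CPM lay below every APOE44 library (90.4 to 106 CPM), with -0.37 (SE 0.07, adjusted p = 0.00231), and overlapped APOE33 (77.9 to 103 CPM), where -0.21 (SE 0.08, adjusted p = 0.0715) did not pass. Adamts12, a protease of cartilage oligomeric matrix protein, ran from 0.163 to 0.209 CPM in KO and from 0.316 to 0.766 CPM in APOE44, with -1.39 (SE 0.35, adjusted p = 0.00991). Adamts16 held 0.0894, 0.451, 0.193 and 0.203 CPM in KO and from 0.378 to 1.26 CPM in APOE44, overlapping, with -1.66 (SE 0.52, adjusted p = 0.0318). That call was lost without any of 4 single libraries in turn, with adjusted p up to 0.125 without KO replicate 1.

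Marker sums of other cells in the KO astrocyte cultures overlapped those of APOE33 for microglia and fibroblasts, and lay below them for ependyma and choroid and for the oligodendrocyte lineage. Microglia and macrophage markers summed to between 138 and 306 CPM in KO and between 87.8 and 338 CPM in APOE33. The fibroblast list summed to between 161 and 236 CPM in KO and between 110 and 181 CPM in APOE33, nearly all of it Islr. Islr was called higher, Pdgfra and Col1a1 were called lower, and the median over the 5 genes tested was -1.33. Ependymal and choroid markers summed to between 101 and 213 CPM in KO and between 233 and 321 CPM in APOE33. Oligodendrocyte-lineage markers summed to between 124 and 144 CPM in KO, between 146 and 187 CPM in APOE33 and between 173 and 211 CPM in APOE44, and 3 of 8 (Cnp, Sox10 and Mobp) were called lower than in APOE33. Neuron markers summed to between 251 and 280 CPM in KO and between 193 and 267 CPM in APOE33. Astrocyte markers summed to between 10038 and 12900 CPM in KO, overlapping APOE33 (10532 to 15252 CPM) and below every APOE44 library (13399 to 15232 CPM). The part of these cells in the member values was not tested.

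**Figure D3:**
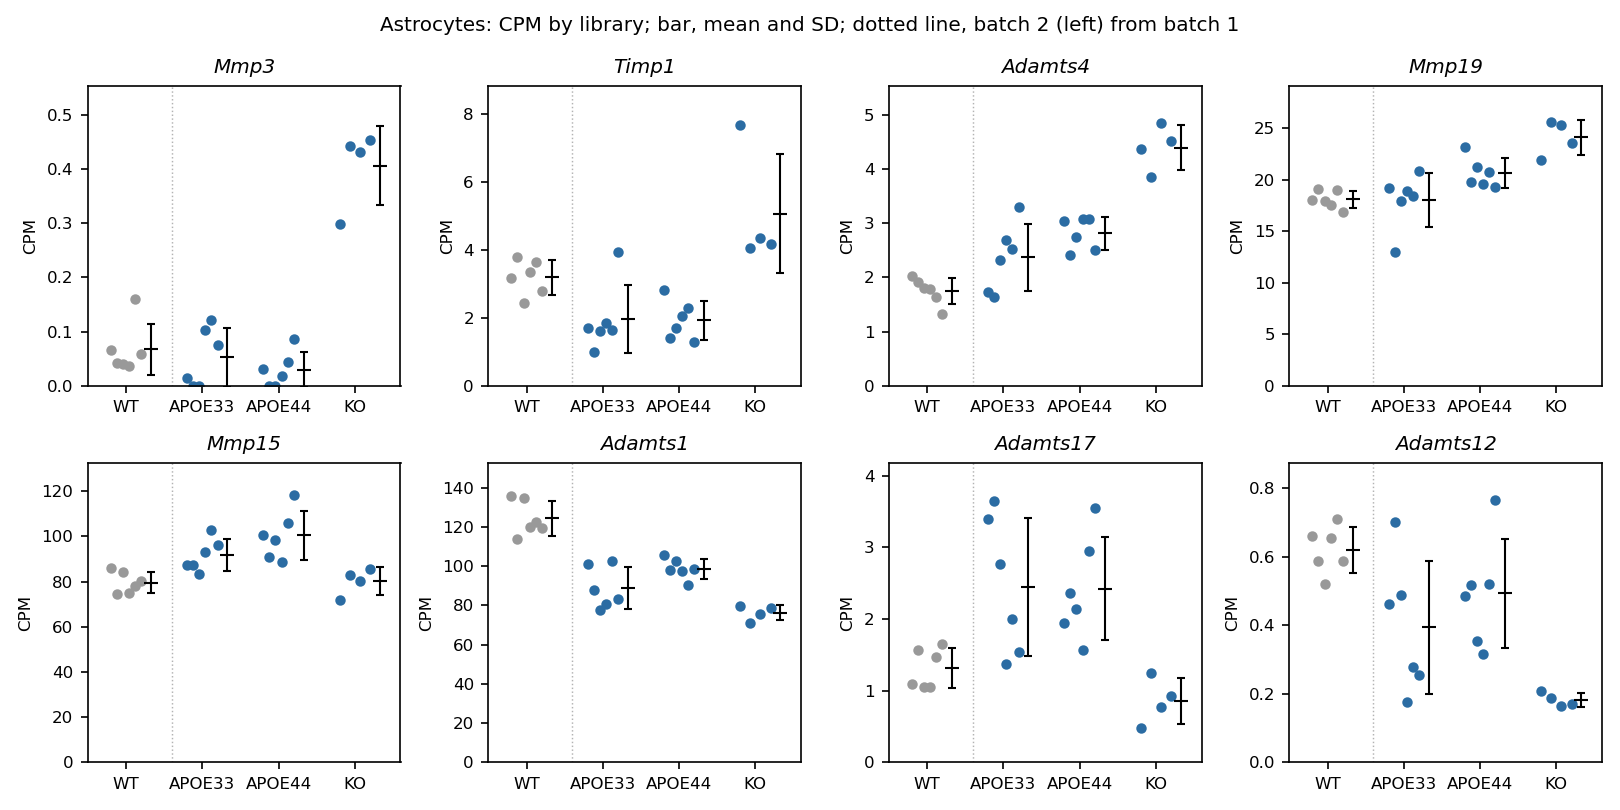
CPM in each astrocyte library by genotype for members the text describes; points are libraries, bars the mean and SD, and the dotted line separates WT, which is batch 2, from the others. The KO libraries of Adamts4 (3.84 to 4.85 CPM) and Mmp3 (0.298 to 0.452 CPM) sit above all others, and 1 KO library of Timp1 stands at 7.67 CPM.

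The KO effect differed between the cell types in 2 of 41 members tested, 4.88%, 1 in each direction, beside 12.7% of all genes (6.18% with a higher and 6.55% with a lower effect in microglia). For Mmp14 the effect against APOE33 was 1.24 in microglia and -0.09 (SE 0.07, adjusted p = 0.342) in astrocytes, and the difference was 1.33 (SE 0.16, edgeR adjusted p = 4.81e-06). For Adamts4 it was -1.07 in microglia (SE 0.59, adjusted p = 0.216) and 0.79 in astrocytes, a difference of -1.88 (SE 0.60, adjusted p = 0.0365). Adamts4 is low in microglia, with KO libraries at 0.320, 0.0948, 0.0718 and 0.268 CPM and APOE33 libraries from 0.140 to 0.921 CPM, overlapping. Its difference was lost without any of 8 single libraries in turn, with adjusted p up to 0.0875, and the highest APOE33 library is replicate 2, without which it was -1.55 (adjusted p = 0.0566). The Mmp14 difference was retained without each library in turn. For Timp1 and Mmp3, called in KO astrocytes alone, the differences between cell types were -1.05 (SE 0.65, adjusted p = 0.324) and -4.14 (SE 1.71, adjusted p = 0.116), which did not pass. Without microglia KO replicate 1 the Timp1 difference was -2.16 and passed (adjusted p = 0.0308). Mmp19 rose in both, and the difference was -0.06 (SE 0.11, adjusted p = 0.812).

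**Figure D4:**
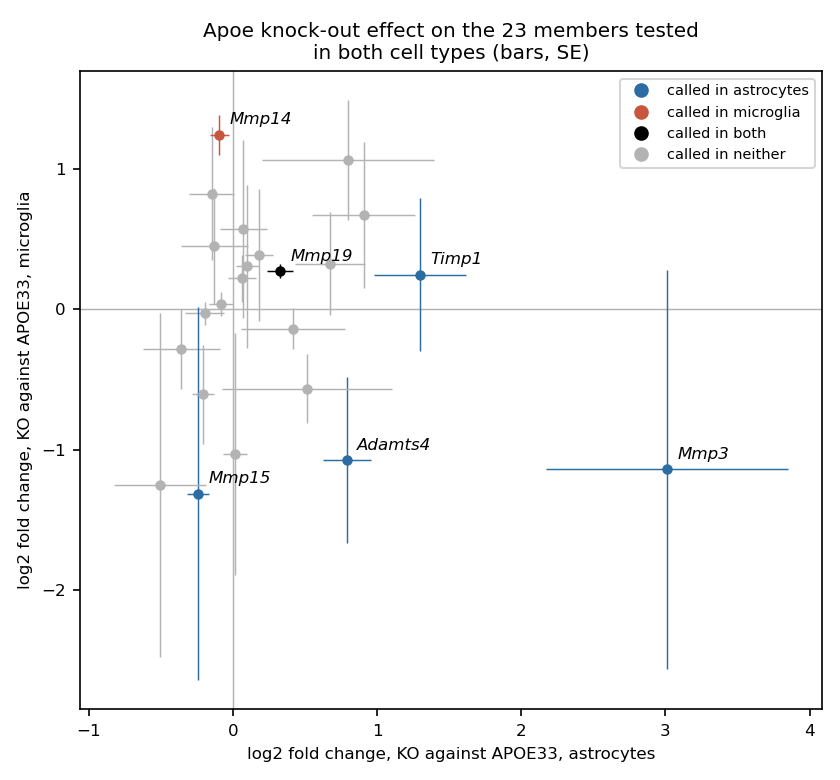
Log2 fold change of KO against APOE33 in astrocytes (x axis) and microglia (y axis) for the 23 members tested in both, with bars of 1 SE. Mmp14 lies at 1.24 on the microglia axis and -0.09 on the astrocyte axis, and Adamts4 at -1.07 and 0.79.

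Against WT more members passed than in the genotype comparisons of batch 1 in the same cell type, except for APOE33 microglia. There 6 of 30 passed, beside 6 of 29 for KO against APOE44. All WT libraries are batch 2 and the others batch 1, so genotype and batch cannot be told apart. The 3 comparisons share the WT libraries, and no value within a batch can be had. In astrocytes 20 of 37 members passed for KO, 8 higher and 12 lower, on a background of 38.3% (19.4% higher, 18.9% lower). For APOE33 18 passed, 7 higher and 11 lower, on 39.0% (20.1% and 18.9%). For APOE44 18 passed, 7 higher and 11 lower, on 41.7% (20.6% and 21.1%). The astrocyte shares, from 48.6% to 54.1% of members, were above those of all genes. In microglia 10 of 30 passed for KO, 5 higher and 5 lower, on 42.4% (20.9% and 21.5%). For APOE33 6 passed, 3 higher and 3 lower, on 44.8% (22.2% and 22.6%), and for APOE44 10 passed, 6 higher and 4 lower, on 45.4% (22.3% and 23.1%). These shares, from 20% to 33.3% of members, were below those of all genes.

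Timp4 gave the widest gap among astrocyte inhibitors. It ran from 34.5 to 59.2 CPM in WT (median 50.4), from 5.46 to 16.4 CPM in APOE33, from 7.46 to 16.3 CPM in APOE44 and at 6.07, 8.79, 8.11 and 5.69 CPM in KO. WT did not overlap the others. The log2 differences from WT were -2.73 in KO (SE 0.31, adjusted p = 2.46e-06), -2.31 in APOE33 (SE 0.25, adjusted p = 1.42e-06) and -2.13 in APOE44 (SE 0.25, adjusted p = 2.37e-06). Timp2 went the other way, from 539 to 618 CPM in WT and 684 to 989 CPM in the other libraries, with no overlap. Its differences were 0.53, 0.59 and 0.46 in KO, APOE33 and APOE44 (SE 0.07, 0.06 and 0.06).

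Among astrocyte proteases, Mmp14 ran from 74.5 to 86.7 CPM in WT and from 89.2 to 129 CPM in the others, with 0.39, 0.47 and 0.53 in KO, APOE33 and APOE44. Several Adamts were lower than in WT. Adamts1 ran from 114 to 136 CPM in WT and from 71.0 to 106 CPM elsewhere (-0.71, -0.51 and -0.35). Adamts5 ran from 83.8 to 104 CPM in WT and from 44.0 to 79.7 CPM elsewhere (-0.70, -0.60 and -0.77). Adamts9 (-0.26, -0.37 and -0.21) and Adamts3 (-0.76, -0.61 and -0.74) were lower too, all passing. In none of Mmp14, Adamts1 and Adamts5 did WT overlap the other libraries. Adamts4, which like Adamts1 and Adamts5 cleaves proteoglycans, was higher than in WT, at 1.27, 0.43 and 0.65, all passing. Mmp17 ran from 10.9 to 11.8 CPM in WT and from 9.98 to 47.8 CPM elsewhere, overlapping in APOE33 and APOE44, with 1.71, 0.81 and 0.84, all passing.

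In microglia, Mmp2 ran from 4.66 to 6.30 CPM in WT and from 8.03 to 13.5 CPM in all others, with 0.85, 0.98 and 1.13 in KO, APOE33 and APOE44 (SE 0.13, 0.12 and 0.12, all passing). WT did not overlap. Mmp8 was at 1.22, 0.79 and 0.63, all passing. Mmp12 passed for KO alone (-0.98, SE 0.33, adjusted p = 0.0217), with WT libraries spread from 156 to 484 CPM and overlapping KO. Mmp11, a stromelysin-like enzyme, was lower, from 1.97 to 2.73 CPM in WT and from 1.11 to 1.91 CPM elsewhere, with -0.55, -0.77 and -0.74. Adamts10 was lower at -0.33, -0.31 and -0.26. Mmp14 passed for KO (1.51, SE 0.13, adjusted p = 5.14e-08) and APOE44 (0.58, SE 0.12, adjusted p = 0.000508), and not for APOE33 (0.29, SE 0.12, adjusted p = 0.0614). Mmp19 passed for KO (0.34, SE 0.05) and APOE44 (0.13, SE 0.04), Mmp9 for APOE44 (-1.38, SE 0.34, adjusted p = 0.00221) and Adamts5 for APOE33 (-1.14, SE 0.41) and APOE44 (-1.44, SE 0.41).

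**Figure D5:**
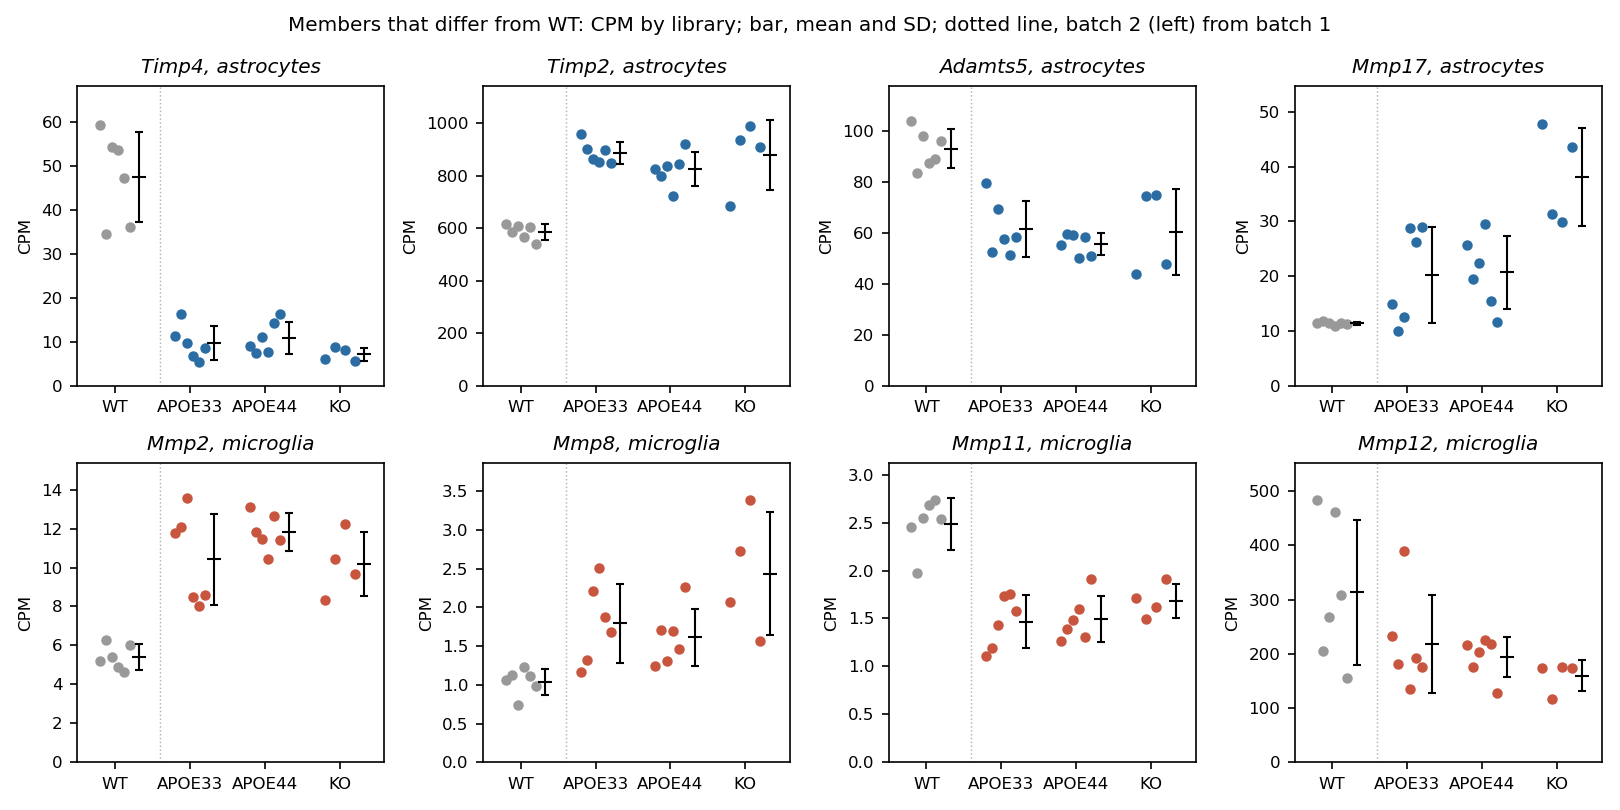
CPM in each library by genotype for 4 members in astrocytes (upper row) and 4 in microglia (lower row); points are libraries, bars the mean and SD, and the dotted line separates WT, which is batch 2, from the others. Astrocyte Timp4 sits between 34.5 and 59.2 CPM in WT and at or under 16.4 CPM elsewhere, and microglial Mmp2 sits at or under 6.30 CPM in WT and at or above 8.03 CPM elsewhere.

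Genes that act on the family were counted in 6 lists. Between APOE44 and APOE33 none was called in either cell type. Activators of precursors gave 3 higher and 0 lower of 8 in KO against APOE33 astrocytes, namely the convertases Pcsk6 (0.85, SE 0.16) and Pcsk5 (0.77, SE 0.17) and Plau, the urokinase that makes plasmin (0.67, SE 0.15). In microglia 1 was higher and 1 lower of 7, Plau at 0.66 (SE 0.13) and Pcsk7 at -0.14 (SE 0.05). Other inhibitors gave 1 higher of 8 in astrocytes, Reck, a membrane-anchored inhibitor of Mmp14 (0.27, SE 0.07), and 0 of 8 in microglia. These counts stand beside the backgrounds of 17.2% in astrocytes and 22.7% in microglia.

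Inducing cytokines with AP-1 and ETS factors were lower in KO than in APOE33 cells where they passed. Against APOE44, 1 of 14 was higher and 5 were lower in KO astrocytes, beside 11.0% higher and 11.8% lower of all genes. In microglia 9 of 14 were lower and none higher than in APOE33, with a median of -0.50 beside -0.02 over all genes. Of all genes, 11.9% were lower and 10.9% higher in that comparison. Ets1 was at -0.96 (SE 0.07), Ets2 at -0.73 (SE 0.11) and Nfkb1 at -0.36 (SE 0.04). In astrocytes 4 of 14 were lower, Jund (-0.58, SE 0.11), Fos (-3.24, SE 0.58), Tgfb2 (-0.48, SE 0.11) and Junb. Of all genes in KO against APOE33 astrocytes, 8.83% were lower and 8.37% higher. Of the ADAM sheddases, 2 were higher and 1 lower of 10 in astrocytes, and 1 higher and 2 lower of 10 in microglia, where Adam19 was at -1.73 (SE 0.13). Adam19 was lower in KO astrocytes too (-0.54, SE 0.14), and the difference between cell types was -1.20 (SE 0.18, adjusted p = 4.79e-05).

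Substrates and non-catalytic relatives completed the lists. Of 15 matrix substrates, 1 was higher and 4 were lower in KO astrocytes, those with the smallest adjusted p being the laminin chain Lama2 (-0.67, SE 0.11), the dystroglycan gene Dag1 (-0.30, SE 0.06) and the tenascin Tnr (-0.87, SE 0.20). In KO microglia 2 of 11 were higher, Tnc (1.73, SE 0.59, adjusted p = 0.0488) and Col4a1 (0.82, SE 0.29, adjusted p = 0.0491). Adamts-like proteins, which lack a protease domain, gave 2 higher of 6 in astrocytes, Adamtsl5 (0.61, SE 0.13) and Adamtsl1 (0.72, SE 0.22), and 0 of 4 in microglia. These counts against APOE33 stand beside 8.37% higher and 8.83% lower of all genes in astrocytes, and 10.9% and 11.9% in microglia. In microglia against astrocytes, 13 of 15 substrates and 5 of 6 Adamts-like genes were lower, and 7 of 10 ADAM genes were higher, beside 50.6% of all genes lower and 40.3% higher.

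Of the 45 members, Mmp1b, Mmp7, Mmp21 and Adamts19 were too low for any test, with 1, 2, 158 and 10 counts in all 44 libraries. The filter on low counts left 35 members in the astrocyte and 29 in the microglia comparisons of batch 1, 37 and 30 in those with WT, and 41 in the comparison of cell types.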

How the data were processed

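The authors deposited 1 table of read counts per gene for the 44 libraries. Per the submitters' processing notes, STAR 2.5.3a, featureCounts, edgeR 3.26.8 and DESeq2 were used; the only build named is hg38, and mouse build, annotation and strand setting: not given in the sources used here. Per the labels' protocols, total RNA was made into libraries read as paired ends. Gene ids were matched to GENCODE M21 (GRCm38). Astrocyte APOE33 replicate 1 carries a WT genotype tag against its title and source, and was kept as APOE33.

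Here the deposited counts were filtered with filterByExpr, scaled by TMM and tested with edgeR 4.0.16 (robust quasi-likelihood F test, sex as covariate, R 4.3.3), with Benjamini-Hochberg adjustment over all genes and a threshold of 0.05. APOE33, APOE44 and KO were fitted per cell type, WT was added in a second fit, and cell types were compared in joint fits. The code was tested on simulated data. Alternatives were DESeq2 1.42.0, RLE scaling, no low-count filter, no sex covariate, a replicate block and leaving out libraries; leaving out the 3 microglia libraries that stand apart was chosen after seeing the data. The 45 members and all lists were chosen with earlier results of these data known. Named members are the Timp genes, those called within batch 1, the 3 highest per class and cell type, and up to 6 per comparison with WT; others named illustrate a range and were chosen with values in view.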

Additional observations from a re-analysis of the deposited data

Results flagged for a closer look

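Dixon's test at the 95% level was run on 200 groups of 4 or 6 libraries and marked 20 values, where chance marks about 1 group in 20. In astrocytes these were Timp1 at 7.67 CPM in KO replicate 1 and at 3.92 CPM in APOE33 replicate 6, each the highest of its group. Mmp3 was lowest of the KO libraries in the same KO replicate 1, at 0.298 CPM, and highest of WT in replicate 5, at 0.160 CPM. Mmp19 was lowest in APOE33 replicate 2, at 13.03 CPM, and Mmp23 was highest in WT replicate 1, at 0.971 CPM.

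In microglia 5 of the marked values belong to APOE33 replicate 2: Mmp3 at 2.04, Mmp15 at 3.81, Mmp16 at 0.405, Timp3 at 2.71 and Timp4 at 0.737 CPM. APOE44 replicate 3 was marked for Mmp3 at 2.14 and Adamts4 at 1.06 CPM. Both libraries are among the 3 with Olig2 and Pdgfra, and the part of other cells in these values was not tested. The remaining marks were Mmp28 at 0.368 CPM in APOE44 replicate 1, Adamts5 at 0.0219 CPM in APOE44 replicate 5, Mmp25 at 0.379 CPM in APOE33 replicate 4, Mmp12 at 116 CPM in KO replicate 2, and in WT Mmp11 at 1.97 CPM in replicate 2, Mmp19 at 26.7 CPM in replicate 3 and Timp1 at 0.546 CPM in replicate 6.

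The KO effect differed between cell types in Mmp14, by 1.33 on the log2 scale, and in Adamts4, by -1.88, each by an interaction term in edgeR.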

How the results depend on the processing

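Outside the settings that leave out a library, 86 of 89 counts of called members stayed within 1.5 times. The exceptions were APOE44 against APOE33 microglia under DESeq2 (1 called), and the KO difference between cell types with no low-count filter (1) and with the replicate block (1); the cause was not tested. Deviations of same-numbered libraries from their group means correlated at -0.361 to 0.326. Libraries of the same genotype and number carry the same sex label in both cell types in 22 of 22 pairs. Whether they share an animal is not given in the labels, and the joint fits treated libraries as independent. With the replicate block 41 members passed between cell types in batch 1. With it 4 and 8 members passed in KO astrocytes against APOE33 and APOE44, and 3 and 6 in KO microglia. There the block ended the calls of Mmp25 against APOE33 (-2.60, adjusted p = 0.0702) and Timp2 against APOE44 (0.0596) and added Mmp27 in both (0.0298 and 0.0299). In KO astrocytes it ended those of Mmp19 (0.0745) and Mmp15 (0.124) against APOE33 and Adamts16 (0.112) against APOE44. Leaving out each library gave 0 to 0 calls for APOE44 against APOE33 astrocytes and 0 to 1 for microglia (1, Mmp9, without APOE33 replicate 6, and 1, Mmp14, without KO replicate 1). KO against APOE33 and APOE44 gave 2 to 7 and 5 to 12 in astrocytes, both lowest without KO replicate 1, and 3 to 4 and 4 to 7 in microglia. Against WT, KO, APOE33 and APOE44 gave 16 to 23, 13 to 19 and 15 to 19 in astrocytes and 8 to 13, 5 to 10 (10 without APOE33 replicate 6) and 9 to 12 in microglia. The cell types gave 40 to 41 in batch 1 and 37 to 38 in WT, and the differences between cell types 0 to 1 for APOE44 (1 without microglia APOE33 replicate 2) and 1 to 5 for KO (5 without microglia KO replicate 1; 1 without any of the 8 libraries on which Adamts4 rests). None of 5201 values of called members reversed (0), and 14 of 26 calls within batch 1 held in every setting. Low counts limit Mmp3, Mmp23 and Mmp25, and 4 KO libraries limit every KO comparison.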
